A study of Mus musculus with 16 samples.

Results

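The cerebellum and the cortex of 4 wild-type mice were compared gene by gene, over all genes and with attention to neuronal classes, glia, transmitters, receptors, ion channels, transcription factors, signalling enzymes and adhesion molecules. The libraries were chosen by their titles alone: the 4 titled wild-type cerebellum (CBLM447, CBLM448, CBLM479 and CBLM480) and the 4 titled wild-type cortex (CTX447, CTX448, CTX479 and CTX480), 8 of the 16 libraries of the series. The study sequenced polyadenylated RNA from the brains of C57BL/6J mice to set expression beside the protein glycosylation of each region. The other 8 libraries come from mice with the A391T substitution in Slc39a8, which encodes a manganese transporter, and they enter the comparison of genotypes at the end and an alternative that follows the other naming given below. All of the wild-type mice were males with an unaltered Slc39a8 gene, were 12 weeks old and untreated, and were killed with CO2. Their brains were not perfused, so blood stayed in the vessels, and frontal cortex and cerebellum were separated by blunt dissection and snap frozen. Each library is 1 region of 1 mouse, and the library number names the mouse, so that CTX447 and CBLM447 share an animal.

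The cortex holds layered glutamatergic projection neurons and a minority of GABAergic interneurons, both born in the telencephalon. The cerebellum is a hindbrain structure in which very numerous small granule cells send excitatory fibres to Purkinje cells, the GABAergic output neurons of its cortex, with Golgi, basket, stellate and unipolar brush cells as further neuronal classes. Bergmann glia are specialised astrocytes whose fibres surround the Purkinje cell dendrites.

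Reads assigned to genes numbered between 20813432 and 30497206 per library. Of 37583 genes in the count files, 25831 had a read in at least 1 wild-type library and 16040 were expressed highly enough to be tested. Levels are given in TPM, a count per unit of gene length expressed as a share of the library, always in the order of the library numbers above. A log2 fold change is cerebellum over cortex, positive where cerebellum is higher, with its standard error (SE). Tests were edgeR's quasi-likelihood tests, adjusted over all genes by the Benjamini-Hochberg method, and a gene is called where the adjusted p is under 0.05 and the difference at least 2-fold. Because the fold changes use normalised library sizes (TMM) rather than TPM totals, a fold change can differ slightly from the ratio of 2 TPM means. Scaling to library totals instead moved the median log2 fold change of all genes from 0.02 to 0.14. In bulk tissue, fewer cells of a type and less RNA per cell cannot be told apart.

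The libraries matched the region in their titles, which is all that these markers check: the summed level of 16 granule cell markers lay between 5917 and 6135 TPM in the cerebellum libraries against 292 to 337 TPM in cortex, and that of 12 markers of telencephalic excitatory neurons between 10725 and 11691 TPM in cortex against 1242 to 1509 TPM in cerebellum. Cerebellum library CBLM479 stood apart from the other 3 in holding little choroid plexus RNA and more of several cortical transcripts, as described with those genes. In a second table of the series, which lists RPKM values, the columns named CTX447, CTX448, CBLM447 and CBLM448 hold libraries that the count files give as A391T (CTX461, CTX462, CBLM461 and CBLM462), and the reverse. CTX479, CTX480, CBLM479 and CBLM480 carry 1 name in both sources and come from 2 mice. Counts for each gene group are therefore also given for those 2 mice alone and without CBLM479. CTX480, the library with the fewest reads, also stood apart from other cortex libraries, for genes listed in the closing sections. Group counts are not given without it. Over all genes, 1771 were called higher in cerebellum and 2322 higher in cortex when CTX480 was left out.

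A total of 3955 genes, 24.7% of those tested, were called, 1685 (10.5%) higher in cerebellum and 2270 (14.2%) higher in cortex. On the adjusted p alone, 10875 genes (67.8%) differed, 5572 higher in cerebellum and 5303 higher in cortex. With both limits but scaling to library totals, the calls were 1989 and 2022. The larger number toward cortex therefore depends on the scaling and on the 2-fold limit. By fitted folds, which overstate what is known of genes with no read in 1 region, differences of at least 8-fold were more often toward cortex, but not the very largest: 299 genes were at least 8-fold higher in cerebellum and 561 in cortex, and beyond 32-fold the numbers were 101 and 177, narrowing to 44 and 52 beyond 128-fold and standing at 26 and 24 beyond 256-fold. Genes called higher in cortex supplied 18.5% to 19.2% of all TPM in the cortex libraries and 5.28% to 5.71% in the cerebellum libraries, and genes called higher in cerebellum supplied 11.1% to 12.0% of TPM in cerebellum and 2.67% to 2.89% in cortex. Uncalled genes thus held most of the RNA in both regions, 77.7% to 78.3% in cortex and 82.2% to 82.7% in cerebellum. Of 961 long non-coding RNA genes tested, 184 were called higher in cerebellum and 170 higher in cortex, together 36.8%, against 24.0% of 14703 protein-coding genes.

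**Figure D1:**
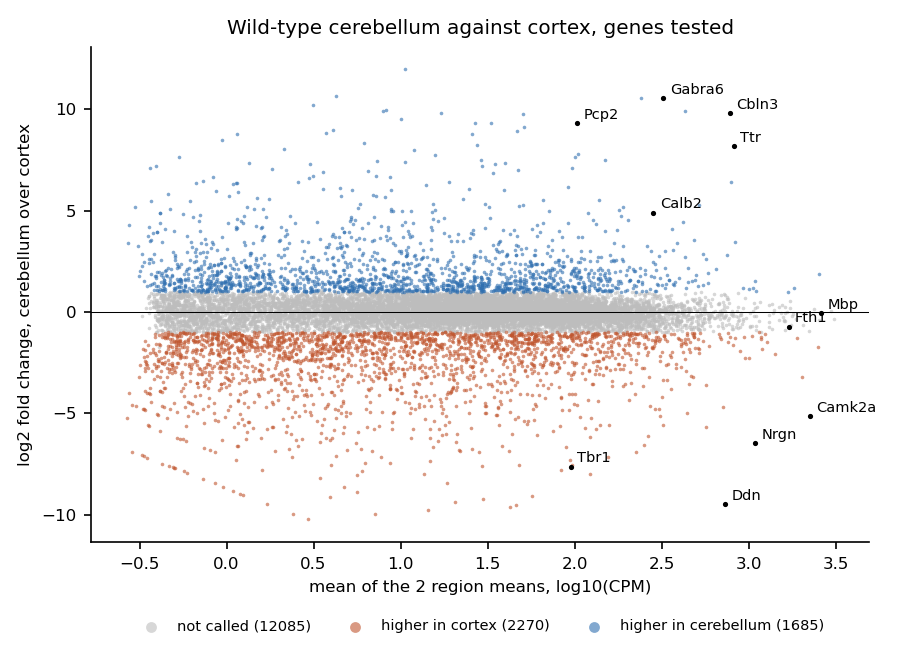
Each point is 1 of the 16040 genes tested, placed by the mean of its 2 region means (log10 CPM, horizontal) and its log2 fold change, cerebellum over cortex (vertical), with named examples in black. The 1685 genes called higher in cerebellum and the 2270 called higher in cortex reach beyond 8 log2 units in both directions, while Mbp and Fth1 lie between the calls.

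Called genes differed from uncalled genes in the DNA before their start sites. In the 250 bases before the annotated start (NCBIM37 genome, 16009 of the 16040 genes), 10 or more CG dinucleotides were found for 67.8% of uncalled genes, 51.0% of genes called higher in cerebellum and 51.1% of those called higher in cortex, with 63.7% over all genes tested. Among genes at least 8-fold different the share was 42.4% toward cerebellum and 43.9% toward cortex. Among protein-coding genes alone the shares were 69.7%, 52.9% and 51.9% for the first 3 classes. The letters TATAAA, on either strand, were in this window for 7.32% of all genes tested, 13.5% of those at least 8-fold higher in cerebellum and 11.8% of those at least 8-fold higher in cortex. These shares are descriptions without a test. The following 120 bases end at the base before the annotated start of 5 genes described below, on the strand of the gene, with CG in capitals, to show the range (RefSeq symbols, NCBIM37 sequence): 2 genes of cerebellar granule cells, Gabra6 (chr11:42134575-42134694, minus strand) and Fat2 (chr11:55150067-55150186, minus), 2 of cortical excitatory neurons, Tbr1 (chr2:61640867-61640986, plus) and Nrgn (chr9:37360331-37360450, minus), and Psap (chr10:59740255-59740374, plus), which was abundant in both regions and not called.
Gabra6: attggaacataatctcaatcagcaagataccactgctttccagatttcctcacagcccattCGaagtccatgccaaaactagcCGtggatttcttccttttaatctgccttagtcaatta
Fat2: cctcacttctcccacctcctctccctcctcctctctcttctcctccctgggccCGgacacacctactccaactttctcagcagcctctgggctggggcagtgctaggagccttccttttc
Tbr1: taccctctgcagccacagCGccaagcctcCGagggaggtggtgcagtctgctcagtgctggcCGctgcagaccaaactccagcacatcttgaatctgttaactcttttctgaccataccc
Nrgn: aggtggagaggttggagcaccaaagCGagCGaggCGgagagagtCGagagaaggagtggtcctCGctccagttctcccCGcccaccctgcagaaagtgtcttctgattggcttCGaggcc
Psap: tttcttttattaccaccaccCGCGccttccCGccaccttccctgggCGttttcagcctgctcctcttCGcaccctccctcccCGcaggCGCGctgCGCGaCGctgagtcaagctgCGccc
The stretch before Psap holds 12 CG dinucleotides and that before Nrgn 7, whereas that before Tbr1 holds 3, that before Gabra6 2 and that before Fat2 1.

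Genes with the largest differences toward cerebellum included markers of granule cells and of glycinergic neurons beside genes in no marker list. Gabra6, the GABA-A receptor subunit of granule cells, was at 0.204, 0.697, 0.415 and 0.233 TPM in cortex and at 650.0, 709, 699 and 658 TPM in cerebellum (log2 fold change 10.55 ± 0.18 SE, adjusted p = 8.32e-12). Cbln3, a secreted cerebellin that organises parallel fibre synapses, was at 0.664, 1.42, 1.13 and 0.875 TPM in cortex and 992, 1003, 1017 and 1090.3 TPM in cerebellum (9.80 ± 0.16, adjusted p = 7.6e-12). For both genes every cerebellum library lay far above every cortex library. Fat2, a giant atypical cadherin of granule cells, was at 0.101 to 0.235 TPM in cortex and at 154, 158, 244 and 236 TPM in cerebellum (9.92 ± 0.25, adjusted p = 6.45e-11), so that CBLM447 and CBLM448 were lower than CBLM479 and CBLM480. Cnpy1, a regulator of fibroblast growth factor signalling, was at 0.0715 to 0.245 TPM in cortex and 279.7 to 316 TPM in cerebellum (10.54 ± 0.15, adjusted p = 2.86e-12). Slc6a5, the glycine transporter of glycinergic neurons such as Golgi cells, reached 25.7 to 31.0 TPM in cerebellum against at most 0.0702 TPM in cortex (9.35 ± 0.21). Crtam, best known as an adhesion receptor of T cells and natural killer cells, was at 194 to 219 TPM in all 4 cerebellum libraries and at 0 to 0.447 TPM in cortex (9.78 ± 0.22, and 10.38 without CTX480).

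Several genes had no or almost no reads in cortex, which sets only a lower bound or a wide interval on the fold. Skor2, a transcriptional corepressor of Purkinje cells, had 0 reads in all cortex libraries and 23.4, 26.5, 26.0 and 25.5 TPM in cerebellum, at least 642-fold higher against a floor of 3 counts over the 4 cortex libraries. For Pax3, a paired-box transcription factor of the embryonic neural tube, the cortex was again at 0 in 4 of 4 libraries, and 3.72 to 4.55 TPM in cerebellum made it at least 258-fold higher. Sycp1, a protein of the meiotic synaptonemal complex, was at 17.4 to 18.9 TPM in cerebellum with a single read in cortex, in CTX480, a ratio of 1495 (95% exact counting interval 268 to 59090). Slc5a1, a sodium-coupled glucose transporter, reached 16.2 to 20.9 TPM in cerebellum against 2 reads in cortex, a ratio of 914 (253 to 7553). These intervals and bounds cover counting error only. In all, 8 called genes had no read in cortex and 20 had none in cerebellum.

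Genes with the largest differences toward cortex included a transcription factor of projection neurons and a protein of cortical dendrites. Ddn, the postsynaptic protein dendrin, was at 1506, 1413, 1446 and 1393 TPM in cortex against 2.09, 2.22, 3.56 and 1.1 TPM in cerebellum (-9.47 ± 0.24, adjusted p = 6.15e-11). The regions came nowhere near an overlap for this gene. Crym, a thyroid hormone-binding crystallin, was at 160.2 to 199 TPM in cortex and 0.168 to 0.32 TPM in cerebellum (-9.51 ± 0.17). Fezf2, the zinc-finger factor of corticofugal neurons, was at 56.2 to 76.2 TPM in cortex and at most 0.257 TPM in cerebellum, the value of CBLM448 (-9.40 ± 0.25, and a ratio of 1660.0, interval 459 to 13710.0, without that library). The potassium channel modifier Kcnv1 was at 85.6 to 106 TPM against 0.0659 to 0.303 TPM (-9.07 ± 0.17).

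Homeobox genes of the DLX family, some of which drive the development of telencephalic GABAergic neurons, were called in both directions. Of the 6 tested, 4 were higher in cortex, and Dlx3 (52 reads in cerebellum and 2 in cortex) and Dlx4 (2.21 ± 0.36), singled out after their values were seen, were higher in cerebellum. Dlx5 was at 10.9, 12.6, 14.1 and 12.1 TPM in cortex with no read in any cerebellum library, at least 170.5-fold higher in cortex. Dlx2 was at 9.39 to 10.6 TPM in cortex with a single cerebellar read, in CBLM448 (ratio 844.6, interval 151 to 33400.0), and so was the neighbouring antisense transcript Dlx6as1, at 5.07 to 6.64 TPM in cortex (ratio 1515, interval 271.5 to 59890.0). Sp8, a zinc-finger factor of interneurons born in the ganglionic eminences, had no cerebellar read and 5.17, 5.97, 10.0 and 5.2 TPM in cortex, at least 121.5-fold higher there, with CTX479 well above the other 3.

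Among the most abundant nuclear-encoded transcripts, those with the 10 highest mean levels in either region, 8 were not called. Ferritin heavy chain, Fth1, had the highest level in cortex, at 7987 to 10571 TPM, and 5086 to 6585 TPM in cerebellum, a difference that passed the adjusted p but not the 2-fold limit (-0.72 ± 0.11, adjusted p = 0.000178). The creatine kinase Ckb, the cytochrome oxidase subunit Cox4i1, the lysosomal precursor Psap and the sodium pump subunit Atp1b1 had log2 fold changes of 0.57, -0.15, -0.04 and -0.11, none of them called. Sparcl1 and Spock2, extracellular matrix proteins, also stayed under the limit at 0.15 and 0.40, as did the selenoprotein Sepw1 at -0.91, which was called at -1.02 in the 2 mice named alike. Toward cortex, Cst3 (the protease inhibitor cystatin C) was at 2884 to 3734 TPM against 1189 to 1343 TPM (-1.47 ± 0.10), Cpe (the prohormone-processing carboxypeptidase E) at 4287 to 5054 TPM against 1999 to 2367 TPM (-1.27 ± 0.08), and Camk2n1 (an inhibitor of CaM kinase II) at 2666 to 3602 TPM against 336 to 408 TPM (-3.22 ± 0.11). Toward cerebellum, Aldoc, the glycolytic enzyme also known as the zebrin II antigen of Purkinje cells, was at 2699 to 3073 TPM against 1095 to 1287 TPM (1.16 ± 0.07), and the membrane protein Itm2b was just past the limit (1.06 ± 0.07, and 0.98 in the 2 mice named alike in both sources).

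Among 100 tested markers of neuronal classes, 45 were called higher in cerebellum and 40 higher in cortex, against 10.5% and 14.2% of all genes, and the lists divided by region of origin. All 16 granule cell markers were called higher in cerebellum (median log2 fold change 4.97, with 0.02 over all genes tested), as were 18 of 19 Purkinje cell markers (median 3.45) and 8 of 11 markers of other cerebellar neurons (median 5.14). Of the 12 telencephalic excitatory markers 11 were called higher in cortex (median -6.56), with 7 of 9 upper-layer markers (-1.76), 8 of 12 deep-layer markers (-1.65) and 14 of 17 tested cortical interneuron markers (-5.77). In the 2 mice named alike in both sources the counts over the group were 46 and 41, and without CBLM479 they were 45 and 43.

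Pcp2, a modulator of G-protein signalling in Purkinje cells, was at 1.06, 1.55, 1.2 and 0.517 TPM in cortex and 819.6, 875, 755 and 768 TPM in cerebellum (9.32 ± 0.15, adjusted p = 7.14e-12), although 46.9% of its exon bases are shared with another annotated gene. Pvalb, the calcium buffer parvalbumin, which marks Purkinje cells, molecular layer interneurons and a class of cortical interneurons, was at 128, 146, 131 and 166 TPM in cortex and 1636, 1825, 1624 and 1545 TPM in cerebellum (3.39 ± 0.10, adjusted p = 2.57e-10). It was the single member of the cortical interneuron list called higher in cerebellum. Pcp4, a calmodulin-binding peptide used here as a Purkinje marker, was the uncalled member of its list, at 452 to 489.7 TPM in cortex and 825 to 948 TPM in cerebellum (0.75 ± 0.07). Lmx1a, a LIM homeobox gene of unipolar brush cells, was at 3.39, 2.45, 0.848 and 3.18 TPM in cerebellum with 2 reads in cortex, both in CTX448 (ratio 101, interval 27.6 to 837.5), and CBLM479 was the lowest of the 4. The epilepsy-linked secreted protein Lgi2 stayed under the limit, at 35.2 to 58.3 TPM in cortex and 89.4 to 110.4 TPM in cerebellum (0.81 ± 0.13, and called at 1.02 in the 2 mice named alike).

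Nrgn, the calmodulin-binding neurogranin of forebrain dendritic spines, was at 6348, 5911, 5962 and 6235 TPM in cortex and at 21.1, 16.9, 254 and 13.6 TPM in cerebellum (-6.49 ± 0.93, adjusted p = 8.1e-05), and without CBLM479, the library at 254 TPM, the log2 fold change was -8.63. The LIM homeobox gene Lhx2 followed the same pattern, at 59.6 to 70.3 TPM in cortex and 0.456, 0.0629, 1.74 and 0.202 TPM in cerebellum (-6.87 ± 0.40, and -8.23 without CBLM479). Neurod2, a basic helix-loop-helix factor counted among the telencephalic excitatory markers, was the exception in that list, at 111 to 144 TPM in cortex and 222 to 268 TPM in cerebellum (0.74 ± 0.09, not called). Among layer markers, Rasgrf2, an upper-layer exchange factor for Ras, was at 70.0 to 98.0 TPM in cortex and 2.32 to 6.87 TPM in cerebellum (-4.59 ± 0.29). Cux1, a homeobox gene of upper layers, was not called (0.47 ± 0.08). The deep-layer markers Etv1, an ETS factor at 19.0 to 21.4 TPM in cortex and 117 to 133 TPM in cerebellum (2.47 ± 0.07), and the neurexin ligand Nxph4 (2.63 ± 0.13) were higher in cerebellum. Syt6, a synaptotagmin of layer 6, lay at the limit without a call (-0.997 ± 0.12, and called at -1.01 to -1.10 when CTX480, CBLM447, CBLM448 or CBLM479 was left out).

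Genes of cortical interneuron classes and general GABAergic genes differed in size of effect. Vip, the vasoactive intestinal peptide of a cortical interneuron class, was at 111, 106, 115 and 159.9 TPM in cortex and at 0, 0.0974, 4.77 and 0 TPM in cerebellum (-6.79 ± 0.58, adjusted p = 1.15e-06, and a ratio of 3994, interval 717 to 157800.0, without CBLM479). None of the 4 general inhibitory markers was called (median 0.65), and 3 of the 4 passed the adjusted p alone with the higher level in cerebellum. Adarb2, an RNA editing family member that marks caudally derived interneurons, differed little (0.38 ± 0.12).

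**Figure D2:**
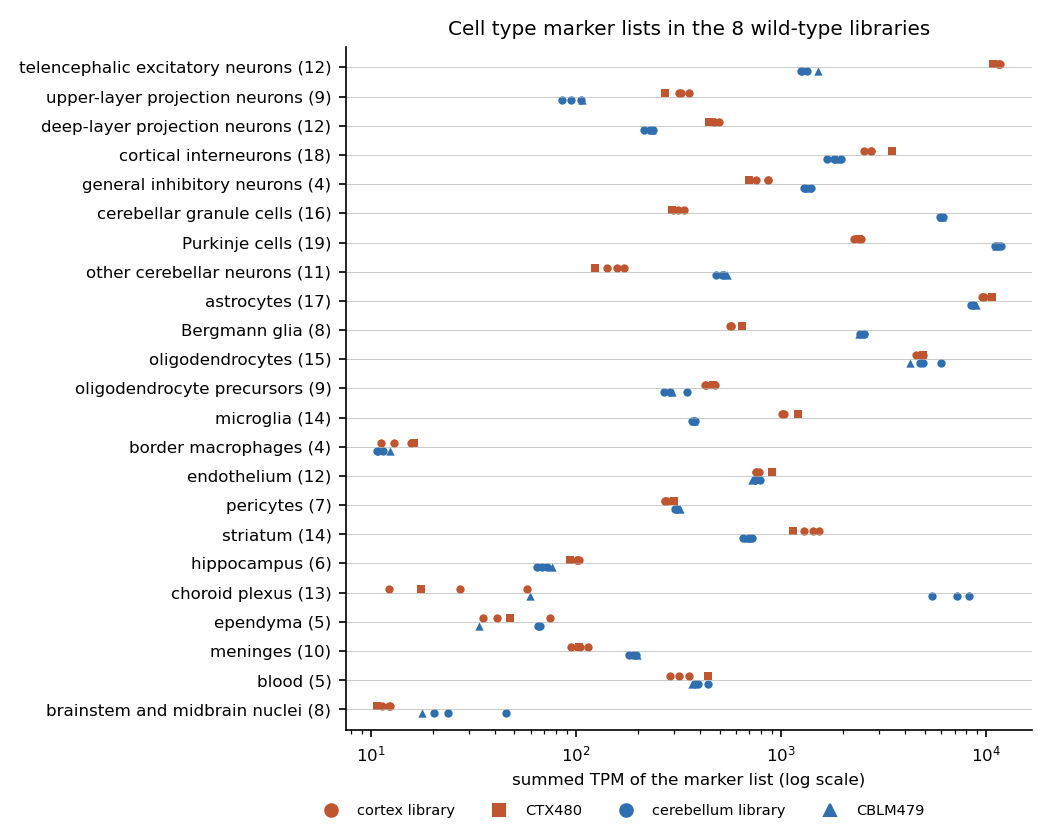
Each row is a marker list with its number of genes, and each point is the summed TPM of the list in 1 library (log scale), with CTX480 and CBLM479 given their own symbols. Granule cell and Purkinje lists are separated toward cerebellum, excitatory and microglial lists toward cortex, and CBLM479 lies close to the cortex libraries for the choroid plexus list, at 59.8 TPM against at most 57.7 TPM.

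Glial lists differed in kind. All 14 microglial markers were called higher in cortex (median -1.90), while 14 of 15 oligodendrocyte markers, 9 of 17 astrocyte markers and all 4 markers of border macrophages were not called. Over 67 glial markers 12 were called higher in cerebellum and 20 higher in cortex, with 12 and 21 both in the 2 mice named alike and without CBLM479. The summed level of the microglial list was 1024, 1032, 1010.3 and 1209 TPM in cortex and 379, 374, 376 and 367 TPM in cerebellum, without overlap. P2ry12, the purinergic receptor of resting microglia, was at 33.4, 27.5, 26.6 and 29.1 TPM in cortex and 8.03, 6.9, 5.38 and 5.56 TPM in cerebellum (-2.32 ± 0.14, adjusted p = 6.17e-08), and Fcrls, an Fc receptor-like gene of microglia, was at 40.7 to 58.1 TPM against 7.06 to 10.0 TPM (-2.56 ± 0.14). Pf4, a chemokine of border macrophages, was at 3.85 to 7.72 TPM in cortex and 2.85 to 5.78 TPM in cerebellum (-0.59 ± 0.29, adjusted p = 0.0972), and in the 2 mice named alike it was called at -1.23.

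Astrocyte genes moved in both directions. Aqp4, the water channel of astrocyte endfeet, was at 55.9, 57.8, 62.5 and 48.8 TPM in cortex and 244, 208, 218 and 216 TPM in cerebellum (1.83 ± 0.08, adjusted p = 4.3e-09), and the calcium-binding protein S100b was at 306 to 436 TPM in cortex and 1262 to 1489 TPM in cerebellum (1.82 ± 0.12). The glutamate transporter Slc1a2 went the other way, with 591, 694, 653 and 579 TPM in cortex and 161, 149.8, 188 and 171 TPM in cerebellum (-2.06 ± 0.08, adjusted p = 1.59e-09), together with the phagocytic bridging protein Mfge8 (-1.65 ± 0.07). Glutamine synthetase, Glul, the most abundant uncalled member, was at 1795 to 1997 TPM in cortex and 1099 to 1197 TPM in cerebellum (-0.86 ± 0.06). Of 8 Bergmann glia markers 6 were called higher in cerebellum and none higher in cortex (median 2.06). Gdf10, a growth factor of the BMP family, was at 6.99, 5.68, 6.34 and 5.56 TPM in cortex and 188, 212, 187 and 211 TPM in cerebellum (4.87 ± 0.10, adjusted p = 1.55e-11), and the protease inhibitor A2m at 1.48 to 2.38 TPM against 93.9 to 116 TPM (5.52 ± 0.12). The radial glial fatty acid-binding protein Fabp7 was not called (0.81 ± 0.17).

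In the oligodendrocyte lineage, mature markers were near balance (median -0.04 over 15). Mbp, the major myelin protein, was at 1872, 2002, 2024 and 2064 TPM in cortex and 2642, 2098, 1730.0 and 2091 TPM in cerebellum (-0.04 ± 0.11, adjusted p = 0.744), a spread within cerebellum wider than the difference between regions. Opalin, a membrane protein of mature oligodendrocytes, was the called exception, at 34.7 to 45.1 TPM against 14.4 to 24.4 TPM (-1.16 ± 0.16), and under the names of the RPKM table it fell just short of the limit, so that no mature marker was called. Among 9 precursor markers 6 were not called. Pdgfra, the growth factor receptor of these cells, was higher in cortex, at 31.1 to 35.9 TPM against 13.0 to 14.8 TPM (-1.45 ± 0.06), as was the receptor Gpr17 of committed precursors (-1.53 ± 0.16). The homeobox factor Nkx2-2 was higher in cerebellum (1.15 ± 0.19), a call lost in a test against a 2-fold change. On the adjusted p alone, 8 of the 9 were higher in cortex. Olig1, the basic helix-loop-helix factor of the lineage, was not called (-0.74 ± 0.10).

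No endothelial or pericyte marker was called among 19 (12 endothelial, median -0.26, and 7 pericyte, median -0.17) by edgeR's test or by DESeq2, although 4 passed the adjusted p alone with the higher level in cortex and 1 was called in the 2 mice named alike. Without CBLM479 none was called. The glucose transporter Slc2a1 of the blood-brain barrier was at 181, 179.6, 136 and 147 TPM in cortex and 199, 206, 148 and 148 TPM in cerebellum (-0.03 ± 0.14, adjusted p = 0.87), so in both regions the first pair of mice was above the other pair. Vtn, a matrix protein of pericytes, was at 115 to 142 TPM and 145 to 161 TPM (0.17 ± 0.08). The haemoglobin gene Hbb-b1 was at 152 to 251 TPM in cortex and 198 to 232 TPM in cerebellum (-0.01 ± 0.14), and none of the 5 tested blood markers was called.

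Markers of tissue next to the dissected regions were called in both directions. All 12 tested choroid plexus markers were called higher in cerebellum, but they rested on 3 libraries: the list summed to 12.3, 27.0, 57.7 and 17.5 TPM in cortex and to 7210, 8222, 59.8 and 5422 TPM in cerebellum, so that CBLM479 lay just above the highest cortex library and far below the other cerebellum libraries. Ttr, the thyroid hormone carrier secreted by choroid plexus, was at 3.24, 15.2, 39.4 and 6.31 TPM in cortex and 6963, 7939, 26.7 and 5217 TPM in cerebellum (8.18 ± 1.41, adjusted p = 0.000332, and 9.06 without CTX479). In the 2 mice named alike it was no longer called at 6.69, and 3 choroid plexus markers remained called. Slc4a5, a bicarbonate transporter of the same epithelium, was at 11.0, 14.7, 1.17 and 9.91 TPM in cerebellum and at most 0.114 TPM in cortex (6.71 ± 0.88). The ciliary factor Foxj1 of ependyma was at 10.3, 11.3, 20.7 and 11.6 TPM in cortex and 28.9, 24.9, 15.3 and 26.8 TPM in cerebellum, overlapping through CTX479 and CBLM479 (0.69 ± 0.24, not called).

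Of 14 striatal markers 10 were called higher in cortex (median -3.82). The orphan receptor Gpr6 was at 18.9 to 27.7 TPM in cortex against 0.0864 to 0.426 TPM in cerebellum (-6.78 ± 0.25). CTX480 had the lowest cortical level of this gene and CTX479 the highest. Penk, the enkephalin precursor, was not called, at 316 to 418 TPM in cortex and 287 to 325 TPM in cerebellum (-0.42 ± 0.09). Of 6 hippocampal markers 3 were called in each direction, and 1 toward cerebellum under the names of the RPKM table. Higher in cerebellum was Prox1, the homeobox gene of dentate granule cells, at 5.54 to 6.69 TPM in cortex and 18.5 to 21.1 TPM in cerebellum (1.55 ± 0.07). Higher in cortex were Fibcd1 (-3.14 ± 0.36, and -3.92 without CBLM479) and Spink8 (-2.39 ± 0.31). The meningeal matrix genes Dcn (1.22 ± 0.12) and Col3a1 (1.13 ± 0.18, and 0.97 without CTX448, 0.99 without CBLM479 or 0.71 under the names of the RPKM table) were called higher in cerebellum, and 8 of 10 meningeal markers were not, including Igf2 (0.98 ± 0.14, and called at 1.04 to 1.08 when CTX479, CBLM479 or CBLM480 was left out).

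Catecholamine genes were uneven among the cerebellum libraries. Th, the rate-limiting enzyme of catecholamine synthesis, was at 3.29, 3.2, 3.27 and 2.46 TPM in cortex and 32.5, 19.6, 13.0 and 16.2 TPM in cerebellum (2.58 ± 0.28, adjusted p = 9.14e-06). Dbh, which makes noradrenaline from dopamine, was at 0.365 to 0.834 TPM in cortex and 8.81, 0.926, 2.21 and 0.989 TPM in cerebellum (2.49 ± 0.79, adjusted p = 0.0157, and 1.26 without CBLM447), and it was not called in the 2 mice named alike, at 1.11. The noradrenaline transporter Slc6a2 was at 4.12, 0.865, 0.809 and 0.359 TPM in cerebellum and at most 0.0535 TPM in cortex (5.16 ± 1.04, and 3.99 without CBLM447). CBLM447 was thus the highest cerebellum library for all 3 genes, and its share of noradrenergic tissue was not tested. Chat, which makes acetylcholine, was higher in cortex, at 3.27 to 5.34 TPM against 0 to 0.2 TPM (-5.67 ± 0.40, and a ratio of 96.99, interval 32.9 to 473, without CBLM447). The Wnt effector Lef1, counted with midbrain and brainstem markers, was not called (-0.48 ± 0.20). Over the 57 tested genes of all neighbouring tissues 19 were called higher in cerebellum and 14 higher in cortex. The numbers were 8 and 12 in the 2 mice named alike, and 19 and 14 without CBLM479.

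**Figure D3:**
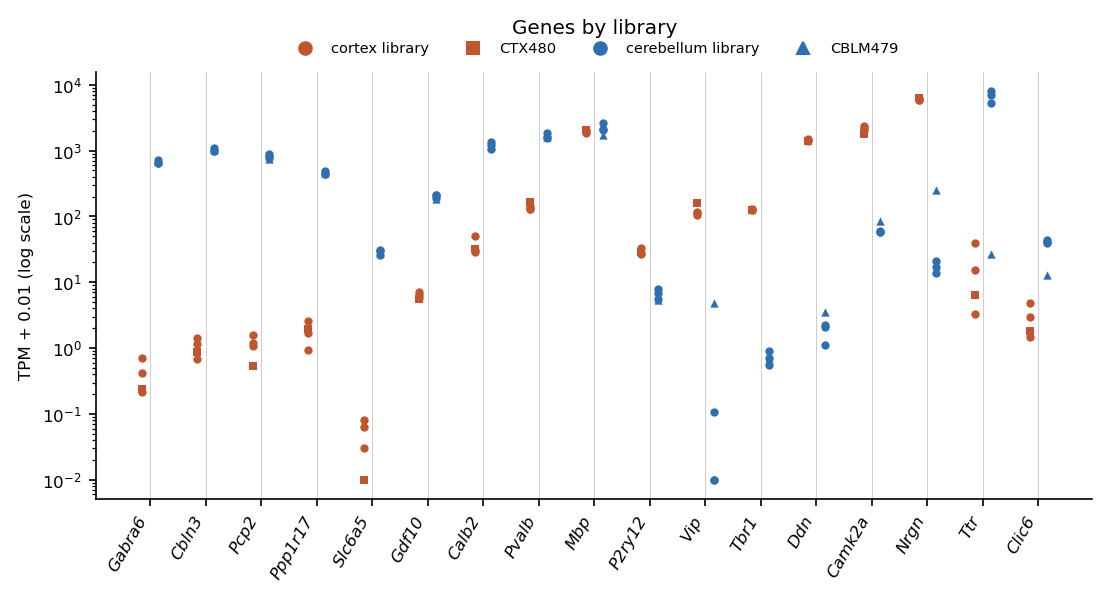
Each point is the TPM of 1 gene in 1 library plus 0.01 (log scale), cortex left and cerebellum right of each line, with CTX480 and CBLM479 given their own symbols. The regions are apart for Gabra6 at the left and for Tbr1 and Ddn further right, and CBLM479 is the cerebellum library nearest to cortex for Nrgn (254 TPM), Vip (4.77 TPM) and Ttr (26.7 TPM).

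Neuropeptide genes leaned to cortex: of 27 tested, 17 were called higher in cortex and 2 higher in cerebellum (median -2.65). The 2 were Nxph4, given above, and Npb, the neuropeptide B precursor, which was at 0.452 to 2.2 TPM in cortex and 2.07 to 3.98 TPM in cerebellum with overlapping libraries (1.11 ± 0.44, adjusted p = 0.0423) and lost the call when any of CTX448, CTX479, CBLM447, CBLM448 or CBLM480 was left out. Neurexophilin 2, Nxph2, had 2 reads in cerebellum and 2.61 to 3.65 TPM in cortex (ratio 122, interval 33.3 to 1011). Trophic factors were more mixed, with 7 of 31 higher in cerebellum and 12 higher in cortex. Hgf, the hepatocyte growth factor, was at 6.83, 9.89, 8.86 and 6.33 TPM in cortex and 0.224, 0.0541, 0.387 and 0.347 TPM in cerebellum (-5.10 ± 0.30, adjusted p = 5.33e-08). Bmp3 was at 11.7 to 16.2 TPM in cortex and was read in cerebellum in CBLM479 alone, at 0.243 TPM (-7.87 ± 0.41, and at least 322-fold higher in cortex without that library), while Bmp5 was higher in cerebellum, at 6.81 to 9.22 TPM against 0.249 to 1.19 TPM (3.24 ± 0.26, with 46.7% of its exon bases shared with another gene). The vascular growth factor Vegfa was not called (0.51 ± 0.07).

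Calcium-binding proteins, which buffer or sense calcium in neurons, were called in both directions, 8 of 25 higher in cerebellum and 6 higher in cortex. Calb2, calretinin, which fills granule cells and unipolar brush cells, was at 31.4, 29.2, 51.3 and 32.1 TPM in cortex and 1336, 1198, 1165 and 1070.0 TPM in cerebellum (4.91 ± 0.17, adjusted p = 7.67e-10). Kcnip2, a calcium sensor that binds Kv4 channels, was at 226, 222, 238 and 209 TPM in cortex and 3.62, 3.76, 15.4 and 4.3 TPM in cerebellum (-5.20 ± 0.39, and -6.01 without CBLM479). The visinin-like protein Vsnl1 was abundant in both regions and not called (-0.66 ± 0.06). Among 26 transporters of transmitters, 6 were called in each direction. The vesicular glutamate transporter Slc17a8 was higher in cortex, at 2.4 to 4.38 TPM against 0.0282 to 0.229 TPM (-5.14 ± 0.37, and -5.79 without CBLM447). Over 107 genes of transmitters, peptides and their handling, 19 were called higher in cerebellum and 42 (39.25%) higher in cortex, 18 and 43 in the 2 mice named alike, and 21 and 43 without CBLM479.

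Receptor genes leaned further to cortex, with 82 of 176 tested (46.6%) called higher there and 29 (16.5%) higher in cerebellum. The counts were 72 and 29 in the 2 mice named alike and 85 and 30 without CBLM479. Ionotropic glutamate receptors, the ligand-gated channels of excitatory synapses, were balanced, with 5 of 18 higher in cerebellum and 6 higher in cortex. Among NMDA receptor subunits Grin2c, the subunit of mature granule cells, was at 48.5 to 60.4 TPM in cortex and 370.0 to 456 TPM in cerebellum (2.75 ± 0.08), whereas Grin2b, typical of forebrain neurons, was at 10.2 to 18.3 TPM in cortex and 0.607 to 0.966 TPM in cerebellum (-4.43 ± 0.21). The kainate subunit Grik5 was higher in cortex (-1.53 ± 0.07), and the AMPA subunit Gria1 was not called (0.62 ± 0.07).

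All 7 tested metabotropic glutamate receptors, which couple glutamate to G proteins, were called, 2 higher in cerebellum and 5 higher in cortex. Grm4, the presynaptic receptor of granule cell axons, was at 24.6, 27.5, 28.4 and 17.9 TPM in cortex and 378, 377, 532 and 553 TPM in cerebellum (4.07 ± 0.17, adjusted p = 3.23e-09), with CBLM447 and CBLM448 again below CBLM479 and CBLM480. Grm5, a postsynaptic receptor, was at 121 to 163 TPM in cortex and 7.9, 6.07, 17.2 and 6.62 TPM in cerebellum (-4.06 ± 0.28), CBLM479 being the highest. Grm3, found in glia and neurons, was higher in cortex (-1.82 ± 0.10).

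GABA and glycine receptor genes (21 tested, 3 higher in cerebellum and 7 higher in cortex) were called in both directions. Beside Gabra6, called toward cerebellum, Gabra5, the subunit of extrasynaptic receptors in forebrain, was at 81.9, 79.7, 84.4 and 82.2 TPM in cortex and 4.17, 0.84, 4.29 and 2.15 TPM in cerebellum (-4.99 ± 0.28, adjusted p = 2.8e-08), and Gabrg3 was also higher in cortex (-4.06 ± 0.19). The glycine receptor subunit Glra1 was higher in cerebellum at low levels, 5.05, 1.36, 2.26 and 2.71 TPM against 0.0446 to 0.572 TPM (2.90 ± 0.52). Gabbr1, a subunit of the metabotropic GABA-B receptor, was near 470 TPM in both regions on average (471 ± 43.6 SD in cortex and 466 ± 15.2 SD in cerebellum, n = 4 each) and was not called (-0.17 ± 0.07).

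Receptors for acetylcholine, monoamines and peptides were called mostly toward cortex. Of 14 acetylcholine receptor genes 8 were higher in cortex and 2 higher in cerebellum (median -1.77), the latter count being 4 without CTX447 or without CBLM447. Chrm1, the M1 muscarinic receptor of cortical pyramidal cells, was at 133.97, 146, 129 and 107 TPM in cortex and 0.53, 0.384, 0.828 and 0.479 TPM in cerebellum (-8.01 ± 0.17, adjusted p = 1.92e-11). The nicotinic subunits divided, with Chrna5 higher in cortex (-5.94 ± 0.38, and a ratio of 114, interval 38.7 to 554, without CBLM479), Chrnb4 higher in cerebellum at 2.55 to 4.17 TPM (3.69 ± 0.29), Chrna3 higher in cerebellum with more scatter, at 3, 1.23, 4.94 and 3.4 TPM (1.90 ± 0.40), and Chrnb2 just under the limit (0.99 ± 0.11, and called at 1.01 to 1.05 when CTX448, CTX479, CBLM447 or CBLM448 was left out). Chrnb2 was also called at 1.14 in the 2 mice named alike, 1.07 under the names of the RPKM table and 1.12 with library totals. Of 44 receptors for monoamines, histamine and purines 24 were higher in cortex and 4 higher in cerebellum (median -1.56). Htr3a, the serotonin-gated channel of a cortical interneuron class, was at 13.0 to 17.4 TPM in cortex and at most 0.221 TPM in cerebellum (-7.11 ± 0.31), and Drd1a, the D1 dopamine receptor, at 27.9 to 37.7 TPM against 0.217 to 0.6 TPM (-6.38 ± 0.19). The adrenoceptor Adra2b (2.12 ± 0.21) and the dopamine receptor Drd4 (1.80 ± 0.23) were higher in cerebellum, at 1.01 to 2.83 TPM, and the adenosine receptor Adora1 was not called (0.34 ± 0.08).

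For peptide, opioid and cannabinoid receptors 24 of 37 were higher in cortex and 7 higher in cerebellum (median -1.86). Vipr2, a receptor for the peptides VIP and PACAP, was at 0.412, 0.352, 0.322 and 0.361 TPM in cortex and 12.7, 16.6, 13.2 and 13.4 TPM in cerebellum (5.11 ± 0.16, adjusted p = 2.85e-10), the reverse of the peptide gene Vip. The neuromedin U receptor Nmur1 was also higher in cerebellum (3.60 ± 0.31). Ntsr1, the neurotensin receptor of layer 6 neurons, was at 10.4, 8.61, 5.98 and 4.64 TPM in cortex and at most 0.226 TPM in cerebellum (-5.83 ± 0.38), and the melanocortin receptor Mc4r at 2.42 to 4.52 TPM against at most 0.115 TPM (-5.45 ± 0.36). The other neurotensin receptor, the astrocytic Ntsr2, passed the adjusted p with the higher level in cortex but not the 2-fold limit (-0.22 ± 0.07). Among 35 tyrosine kinase receptors 21 were not called, 6 were higher in cerebellum and 8 higher in cortex. Ret, the receptor of GDNF family ligands, was at 1.39 to 3.75 TPM in cortex and 22.98 to 27.2 TPM in cerebellum (3.30 ± 0.23), Flt3 at 4.01 to 5.54 TPM and 28.4 to 32.7 TPM (2.57 ± 0.10), and Met, the receptor of Hgf, was higher in cortex like its ligand, with 3.2 to 4.81 TPM in cortex and 0.0929 to 0.192 TPM in cerebellum (-4.85 ± 0.21). Alk was higher in cortex (-2.69 ± 0.25) and Tyro3 was not called (-0.55 ± 0.07).

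**Figure D4:**
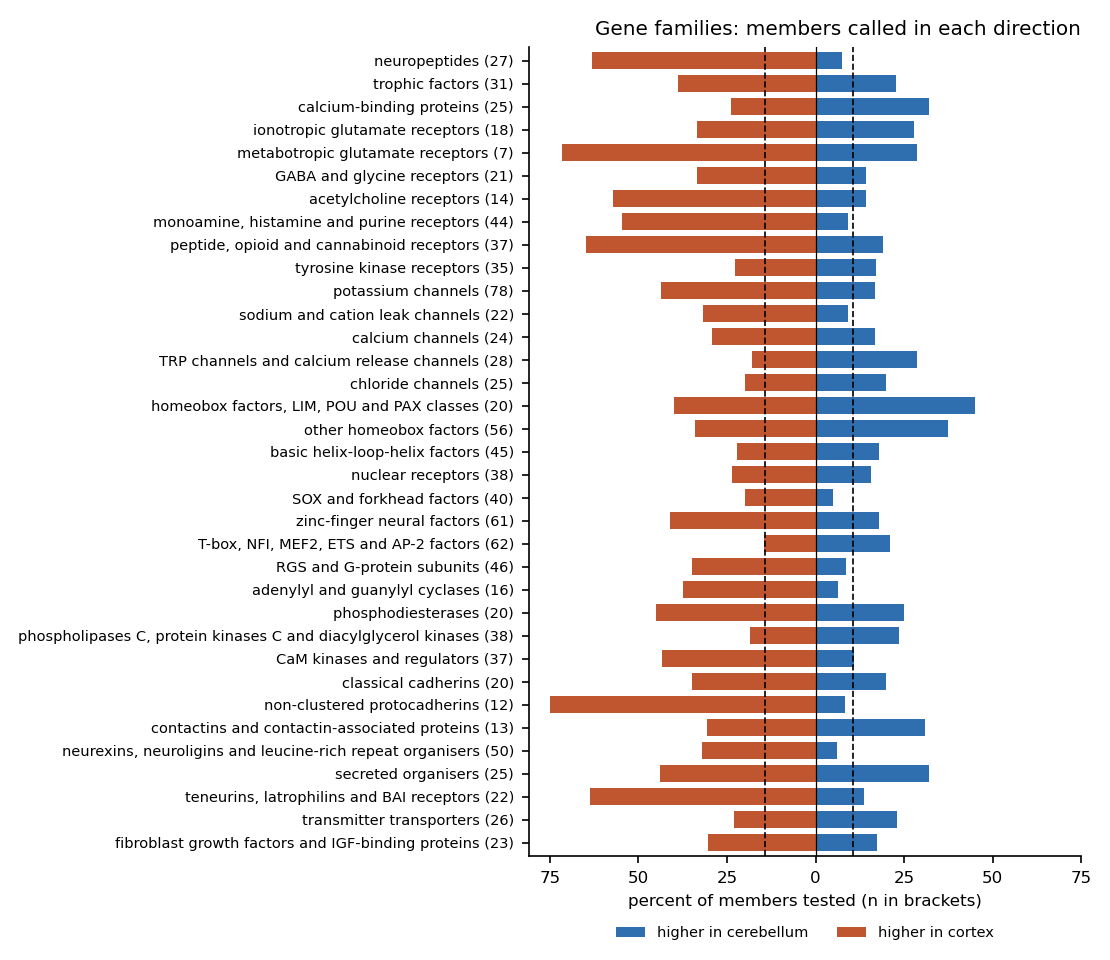
Bars give the percent of the tested members of each gene family (number in brackets) that were called higher in cortex, to the left, and higher in cerebellum, to the right, and the dashed lines mark the shares over all genes tested, 14.2% and 10.5%. Non-clustered protocadherins, metabotropic glutamate receptors and peptide receptors reach farthest toward cortex, and homeobox factors of the LIM, POU and PAX classes farthest toward cerebellum.

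Of 177 ion channel genes tested, 32 (18.1%) were called higher in cerebellum and 58 (32.8%) higher in cortex, with 35 and 53 in the 2 mice named alike and 34 and 58 without CBLM479. Potassium channels, which set resting potential and firing, made up most of the cortex calls, 34 of 78, against 13 higher in cerebellum. Kcnj4, an inward rectifier of forebrain neurons, was at 349, 306, 308 and 321 TPM in cortex and 1.5, 1.65, 4.44 and 1.25 TPM in cerebellum (-7.33 ± 0.25, adjusted p = 5.57e-10, and -7.92 without CBLM479). Kcng4, a modifier subunit of Kv2 channels, was at 8.31 to 13.0 TPM in cortex and 228 to 264 TPM in cerebellum (4.34 ± 0.13). Kcnj13, an inward rectifier of choroid plexus, showed the library pattern of Ttr, at 14.6, 15.9, 1.76 and 10.4 TPM in cerebellum and 0.769 to 0.907 TPM in cortex (3.51 ± 0.62, 49.1% of exon bases shared, and not called in the 2 mice named alike). The tandem-pore channel Kcnk1 stayed just under the limit (0.95 ± 0.06).

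Among sodium and leak channels 7 of 22 were higher in cortex and 2 higher in cerebellum, the latter a share near the 10.5% of all genes tested. Scn3b, an auxiliary subunit of voltage-gated sodium channels, was at 120.3, 120.2, 127 and 117 TPM in cortex and 7.14, 4.49, 5.6 and 5.81 TPM in cerebellum (-4.54 ± 0.11, adjusted p = 5.2e-11). The epithelial sodium channel subunits Scnn1g, at 5.28 to 6.12 TPM against 0.111 to 0.343 TPM (4.73 ± 0.25), and Scnn1b, with 3 reads in cortex and 2.03 to 3.92 TPM in cerebellum (ratio 62.0, interval 20.9 to 303), were both higher in cerebellum. Of 24 calcium channels 4 were higher in cerebellum and 7 higher in cortex. Cacng3, an AMPA receptor auxiliary subunit of forebrain, was at 296 to 326 TPM in cortex and 15.9 to 20.3 TPM in cerebellum (-4.25 ± 0.08), the T-type channel Cacna1h was also higher in cortex (-3.53 ± 0.26), and Cacng5 (2.80 ± 0.18) and Cacna2d2 (2.15 ± 0.21), the latter at 126 to 142 TPM in cerebellum, were higher in cerebellum. Cacng7 was not called (0.71 ± 0.06).

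TRP and calcium release channels were called 8 times toward cerebellum and 5 times toward cortex among 28. Trpm3, a channel gated by heat and steroids, was at 5.93, 13.3, 13.8 and 5.28 TPM in cortex and 63.2, 60.8, 79.1 and 88.5 TPM in cerebellum (2.78 ± 0.28, adjusted p = 5.25e-06), and the cold receptor Trpm8 was at 1.43 to 2.22 TPM in cerebellum against 0.0311 to 0.14 TPM (4.10 ± 0.32). Trpv6 (-3.95 ± 0.20) and Trpc6 (-2.99 ± 0.19) were higher in cortex, and the lysosomal channel Mcoln1 was not called (0.21 ± 0.08). Chloride channels were called 5 times in each direction among 25. Clic6, an intracellular chloride channel of choroid plexus, was at 41.2, 44.5, 13.0 and 39.5 TPM in cerebellum and 1.46 to 4.77 TPM in cortex (3.51 ± 0.43), so CBLM479 was lowest here too, but stayed above the cortex range. Clcn1, the chloride channel of skeletal muscle, was at 11.2 to 15.0 TPM against 2.03 to 2.36 TPM (2.44 ± 0.11). Of the anoctamins, Ano2 had 3 reads in cerebellum and 1.36 to 3.17 TPM in cortex (ratio 137, interval 46.4 to 665.5), Ano3 was higher in cortex (-1.97 ± 0.11), and the transporter Clcn4-2 was not called (-0.18 ± 0.06).

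Transcription factors were called in near balance, 70 of 322 tested (21.7%) higher in cerebellum and 88 (27.3%) higher in cortex, with 72 and 83 in the 2 mice named alike and 70 and 90 without CBLM479. Homeobox factors of the LIM, POU and PAX classes, which set regional and neuronal identity, were called in 17 of 20 cases, 9 higher in cerebellum and 8 higher in cortex, the latter 5 under the names of the RPKM table. Lhx1, a LIM factor of Purkinje cells, was at 0.0888, 0.101, 0.334 and 0 TPM in cortex and 62.1, 70.4, 76.7 and 76.3 TPM in cerebellum (8.93 ± 0.25, adjusted p = 1.53e-10, and 9.80 without CTX479), and Lhx6, the LIM factor of cortical interneurons, at 10.0 to 14.4 TPM in cortex and 0.22 to 0.282 TPM in cerebellum (-5.77 ± 0.17). Pou6f1 was not called (-0.87 ± 0.07). Other homeobox genes gave 21 calls toward cerebellum and 19 toward cortex among 56. Barhl2 was at 0.195, 0.0666, 0.308 and 0.089 TPM in cortex and 58.9, 54.1, 53.0 and 53.9 TPM in cerebellum (8.24 ± 0.18, adjusted p = 2.9e-11) and its relative Barhl1, of the granule cell lineage, at 13.1 to 16.2 TPM against at most 0.0814 TPM (8.00 ± 0.25). Meis3 was not called (0.18 ± 0.07), and none of 39 HOX cluster genes was expressed highly enough to be tested, while without the filter on low counts 5 were called higher in cerebellum.

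Zinc-finger factors were called toward cortex more often, 25 of 61 against 11. Zic1, a factor of granule cells and their precursors, was at 7.93, 12.1, 22.3 and 9.51 TPM in cortex and 550.1, 527, 557 and 574 TPM in cerebellum (5.27 ± 0.28, adjusted p = 1.96e-08), and Zic2 at 8.24 to 14.1 TPM and 260.0 to 279 TPM (4.52 ± 0.14). Klf9, a thyroid hormone-responsive factor, lay at 240.5 to 290.4 TPM over all 8 libraries and was not called (-0.09 ± 0.07, adjusted p = 0.292). Among T-box, NFI, MEF2, ETS, AP-2 and related factors 40 of 62 were not called. Toward cerebellum 13 were called and toward cortex 9, the latter a share near the 14.2% of all genes tested. Tbr1, the T-box factor of deep cortical layers, was at 126, 129.7, 124 and 125 TPM in cortex and 0.894, 0.54, 0.69 and 0.693 TPM in cerebellum (-7.63 ± 0.10, adjusted p = 2.86e-12), and the LIM-only factor Lmo3 was also higher in cortex (-5.34 ± 0.13). Skor1, a corepressor related to Skor2, was at 22.02 to 23.6 TPM in cerebellum against 0.216 to 0.364 TPM (6.27 ± 0.13), and Mef2d was not called (-0.33 ± 0.11).

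Of 45 basic helix-loop-helix factors 27 were not called. Hes3, a Notch pathway repressor, was at 0.543, 1.06, 0.613 and 0.796 TPM in cortex and 129, 149.9, 135 and 138 TPM in cerebellum (7.32 ± 0.14, adjusted p = 1.3e-11). The pair Nhlh1 and Nhlh2 was opposed, with Nhlh2 at 18.7 to 20.3 TPM in cerebellum against 0.0985 to 0.218 TPM (6.66 ± 0.16) and Nhlh1 at 1.22 to 2.13 TPM in cortex against 0 to 0.18 TPM (-4.14 ± 0.45). Twist2 was higher in cortex (-4.98 ± 0.43, and a ratio of 64.8, interval 17.65 to 540, without CBLM447), and Id2, an inhibitor of this family, was not called (0.35 ± 0.10). Nuclear receptors gave 6 calls toward cerebellum and 9 toward cortex among 38. Nr0b2, the small heterodimer partner, had no read in cortex and 5.32 to 6.95 TPM in cerebellum, at least 57.3-fold higher. Nr2e1, the orphan receptor of forebrain progenitors, was at 13.9 to 17.3 TPM in cortex and 0, 0.0374, 0.344 and 0 TPM in cerebellum (-7.46 ± 0.39, and a ratio of 1382, interval 248 to 54600.0, without CBLM479). The retinoid receptor Rxrg was higher in cortex (-4.75 ± 0.20), and the thyroid hormone receptor Thra, at 811 to 867 TPM in cortex and 529.7 to 542 TPM in cerebellum, was not called (-0.80 ± 0.06). Of 40 SOX and forkhead factors 10 were called, a share near the 24.7% of all genes tested. Foxo6 was higher in cortex (-3.50 ± 0.28), Foxn3 (1.59 ± 0.21) and Foxn2 (1.44 ± 0.07) were higher in cerebellum, and Foxo3 stayed just under the limit (0.98 ± 0.09, and called at 1.05 without CTX448 and 1.02 without CBLM480).

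Signalling enzymes and regulators were called toward cortex in 60 of 182 cases (33.0%) and toward cerebellum in 31 (17.03%), with 57 and 31 in the 2 mice named alike and 62 and 30 without CBLM479. RGS proteins, which speed the turning off of G proteins, and G-protein subunits gave 16 calls toward cortex and 4 toward cerebellum among 46. The share toward cerebellum, 8.7%, is near the 10.5% of all genes tested. Rgs8, enriched in Purkinje cells, was at 66.3, 72.2, 75.8 and 57.7 TPM in cortex and 782, 857, 859 and 805 TPM in cerebellum (3.45 ± 0.09, adjusted p = 6.8e-11), while Rgs14 was at 71.5 to 86.4 TPM in cortex and 0.539 to 0.859 TPM in cerebellum (-6.92 ± 0.13) and Rgs4 at 379.8 to 427 TPM and 14.7 to 18.5 TPM (-4.78 ± 0.09). The G-protein subunit Gng13 was higher in cerebellum (2.37 ± 0.09, with 51.6% of exon bases shared), and Gnb1 was not called (-0.70 ± 0.05). For adenylyl and guanylyl cyclases the counts were 1 toward cerebellum and 6 toward cortex of 16. Adcy1, a calmodulin-stimulated cyclase, was at 272, 381, 379.6 and 222 TPM in cortex and 592, 623, 812 and 775 TPM in cerebellum, just past the limit (1.01 ± 0.16). It fell under the limit, at 0.88 to 0.98, when any of CTX447, CTX480, CBLM479 or CBLM480 was left out. It also did so, at 0.99, with DESeq2 and with another scaling (RLE). In each of these cases no cyclase was called higher in cerebellum. Adcy2 (-2.27 ± 0.07) and Gucy2g (-6.44 ± 0.23) were higher in cortex, and Adcy6 was not called (-0.22 ± 0.10).

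Phosphodiesterases, which break down cyclic nucleotides, differed within the same subfamily. Pde1a was at 112, 112, 105 and 94.6 TPM in cortex and 1.46, 1.34, 2.57 and 1.22 TPM in cerebellum (-6.15 ± 0.19, adjusted p = 2.43e-10), and Pde1c at 2.05 to 3.47 TPM in cortex and 20.99 to 31.3 TPM in cerebellum (3.15 ± 0.16). Pde2a was higher in cortex, at 409 to 493 TPM against 44.9 to 49.6 TPM (-3.38 ± 0.07), Pde3a higher in cerebellum (2.89 ± 0.22), and Pde6d not called (0.09 ± 0.07). In total 9 of 20 were higher in cortex and 5 higher in cerebellum. Phospholipases C, protein kinases C and diacylglycerol kinases gave 9 calls toward cerebellum and 7 toward cortex of 38, among them Prkcd, a protein kinase C, at 79.2 to 88.3 TPM in cerebellum and 6.32, 7.88, 17.9 and 8.28 TPM in cortex (2.90 ± 0.25), Plce1 (2.66 ± 0.16) toward cerebellum, and Dgkb (-2.48 ± 0.11) and Plcb2 (-2.35 ± 0.19) toward cortex. Dgkz was not called (0.21 ± 0.06).

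Calmodulin-dependent kinases and phosphatase regulators were called toward cortex in 16 of 37 cases and toward cerebellum in 4, the latter a share near the 10.5% of all genes tested. Camk2a, the kinase of forebrain excitatory synapses, was at 2037, 2347, 2226 and 1764 TPM in cortex and 58.0, 59.8, 86.2 and 58.4 TPM in cerebellum (-5.15 ± 0.15, adjusted p = 2.05e-10). The pseudokinase Camkv was at 662 to 854 TPM in cortex and 12.0, 11.1, 36.2 and 11.8 TPM in cerebellum (-5.59 ± 0.37, and -6.20 without CBLM479). CBLM479 was the highest cerebellum library for both, as for Nrgn. Toward cerebellum, Ppp1r17, a phosphatase inhibitor of Purkinje cells that is a substrate of cyclic GMP-dependent kinase, was at 0.927, 2.59, 1.71 and 1.92 TPM in cortex and 443, 484, 451 and 436 TPM in cerebellum (7.81 ± 0.16, adjusted p = 1.65e-11), and the kinase itself, Prkg1, at 3.32 to 7.15 TPM and 20.03 to 26.2 TPM (1.92 ± 0.18). Calmodulin gene Calm3 was at 1998 to 2401 TPM in cortex and 1567 to 1645 TPM in cerebellum and was not called (-0.64 ± 0.07).

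Adhesion molecules and synapse organisers were called higher in cortex in 61 of 142 cases (43.0%) and higher in cerebellum in 23 (16.2%), with 61 and 24 in the 2 mice named alike and 63 and 23 without CBLM479. Classical cadherins, the calcium-dependent adhesion proteins of junctions, gave 7 calls toward cortex and 4 toward cerebellum of 20. Cdh15, known as muscle cadherin and also made by granule cells, was at 2.8, 2.35, 2.29 and 2.99 TPM in cortex and 91.5, 104, 112 and 126 TPM in cerebellum (5.23 ± 0.13, adjusted p = 4.71e-11). Cdh9 was at 19.0 to 22.5 TPM in cortex and 0.716, 0.738, 2.59 and 0.592 TPM in cerebellum (-4.30 ± 0.32, and -5.07 without CBLM479), Cdh13 was higher in cortex (-2.67 ± 0.09), Cdh3 was low but higher in cerebellum, at 0.668 to 1.54 TPM (3.35 ± 0.38), and Cdh22 was not called (0.59 ± 0.07). Of 12 non-clustered protocadherins 9 were higher in cortex and 1 higher in cerebellum (median -1.84). Pcdh8 was at 43.1, 45.9, 46.3 and 36.0 TPM in cortex and 3.95, 3.11, 3.9 and 2.58 TPM in cerebellum (-3.81 ± 0.13, adjusted p = 7.44e-10), Pcdh10 was at 57.7 to 74.2 TPM and 9.93 to 12.2 TPM (-2.77 ± 0.09), and Pcdh9 was not called and its libraries overlapped (-0.04 ± 0.17).

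Contactins and contactin-associated proteins were balanced, 4 in each direction of 13. Cntn6, expressed by granule cells, was at 13.1 to 15.1 TPM in cortex and 53.0, 56.2, 72.6 and 67.9 TPM in cerebellum (1.99 ± 0.10), and Cntnap4 was higher in cerebellum as well (1.49 ± 0.09). Cntnap3 was higher in cortex, at 4.2 to 6.87 TPM against 0.0327 to 0.126 TPM (-6.32 ± 0.29), with Cntnap5a (-1.70 ± 0.28), and the axonal Cntnap1 was not called (0.40 ± 0.11). Neurexins, neuroligins and leucine-rich repeat organisers were called toward cortex in 16 of 50 cases and toward cerebellum in 3. Lrfn2, a postsynaptic leucine-rich repeat protein, was at 36.6, 37.7, 36.4 and 29.6 TPM in cortex and 2.25, 0.916, 2.63 and 1.44 TPM in cerebellum (-4.43 ± 0.21, adjusted p = 9.24e-09), and Elfn1 was also higher in cortex (-3.93 ± 0.25). Toward cerebellum stood Adam11, an adhesion protein of the ADAM family, at 80.1 to 129 TPM and 301 to 323 TPM (1.34 ± 0.12), and Lgi4 (1.49 ± 0.12, with 44.9% of exon bases shared), and Lrrc4b was not called (-0.21 ± 0.07).

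Secreted organisers gave 8 calls toward cerebellum and 11 toward cortex of 25. Cbln1, a cerebellin that granule cells release, is annotated as 2 overlapping genes with the same symbol. They share 67.5% and 87.0% of their exon bases with other genes. Reads that could belong to more than 1 gene were left out of the counts, so the levels of both may be understated. The first (ENSMUSG00000031654) was at 1.97, 1.54, 2.28 and 0.851 TPM in cortex and 314, 293, 350.2 and 384 TPM in cerebellum (7.50 ± 0.18, adjusted p = 4.79e-11), and the second (ENSMUSG00000090275) at 30.7 to 34.1 TPM in cerebellum with 1 read in cortex, in CTX480 (ratio 1437, interval 257.5 to 56790.0). Thbs4, a thrombospondin, was at 12.1 to 21.2 TPM in cortex and 0.0906 to 0.185 TPM in cerebellum (-7.15 ± 0.27). Among teneurins, latrophilins, adhesion receptors of the BAI class and the guidance genes listed with them, 14 of 22 were higher in cortex and 3 higher in cerebellum (median -1.34). Robo3, of the Slit receptor family, was at 12.5, 21.3, 18.8 and 20.4 TPM in cortex and 0.513, 0.383, 0.368 and 0.193 TPM in cerebellum (-5.78 ± 0.24, adjusted p = 2.94e-09), and the guidance ligand Slit1 at 26.5 to 50.5 TPM and 1.15, 0.952, 3.36 and 1.09 TPM (-4.74 ± 0.34, and -5.37 without CBLM479). The netrin receptor Unc5b was higher in cerebellum, at 100.1 to 106 TPM against 18.6 to 27.1 TPM (2.06 ± 0.09), as was the teneurin Odz1 (1.82 ± 0.22), at 20.07, 20.04, 29.4 and 29.5 TPM, and the latrophilin Lphn1 was not called (-0.69 ± 0.08).

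Fibroblast growth factors and IGF-binding proteins gave 4 calls toward cerebellum and 7 toward cortex of 23. Fgf7, a ligand of epithelial FGF receptors, was at 0.675, 0.769, 0.966 and 0.822 TPM in cortex and 18.5, 16.7, 16.6 and 16.0 TPM in cerebellum (4.24 ± 0.13, adjusted p = 2.56e-10), and Igfbp4, which binds insulin-like growth factors, at 109 to 119 TPM and 17.9 to 20.6 TPM (-2.74 ± 0.07). Fgf3 was low in cortex, at 0.859 to 1.99 TPM (-3.21 ± 0.65, and a ratio of 29.3, interval 7.83 to 247, without CBLM447). Igfbp1 was read once in cortex, in CTX480, and stood at 1.17 to 1.66 TPM in cerebellum (ratio 52.7, interval 9.09 to 2118). Fgf12 was not called (-0.52 ± 0.06).

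Several long non-coding RNAs had few or no reads in the lower region. 1500016L03Rik was at 0.189, 0, 0.214 and 0.216 TPM in cortex and 168, 173, 161 and 161 TPM in cerebellum, with 3 reads over the 4 cortex libraries (ratio 1035, interval 354 to 5021). Gm13944 was at 26.6 to 34.8 TPM in cerebellum with 1 cortex read, in CTX480 (ratio 682, interval 122 to 26990.0), and 0610009B14Rik at 8.82 to 12.8 TPM with 1 cortex read, in CTX447 (ratio 244, interval 43.4 to 9678). Gm15577 and B930086A06Rik had no cortex read, at 9.43 to 11.3 TPM and 0.866 to 2.38 TPM in cerebellum, at least 190.5-fold and 69.7-fold higher. Toward cortex, Gm11549 was at 74.3, 74.1, 81.8 and 78.5 TPM in cortex and 0.216, 0.105, 0.214 and 0 TPM in cerebellum (-9.24 ± 0.20, adjusted p = 1.93e-11). Gm13601 and Gm12300 had no cerebellar read, at least 89.8-fold and 40.01-fold higher in cortex, and 41.6% of the exon bases of Gm13601 are shared with another gene. 9130024F11Rik had 2 cerebellar reads and 15.3 to 29.7 TPM in cortex (ratio 356, interval 98.1 to 2944).

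In the 8 libraries that the count files give as A391T the same comparison called 3949 of 16005 genes (24.7%). Of 3853 wild-type calls that were tested in both genotypes, 3412 (88.6%) were called in the same direction in A391T mice, which is 88.3% of the 3865 A391T calls, and none was called in the opposite direction. The sign was the same for 3851 of the 3853. In a model of all 16 libraries, the region difference differed between genotypes for 0 of 16589 genes (0.0%) by edgeR's quasi-likelihood test, with 805 at an unadjusted p under 0.05 and a smallest adjusted p of 0.367. Since the RPKM table exchanges 2 of the 4 mice of each genotype, these counts compare genotypes only if the names of the count files are right.

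**Figure D5:**
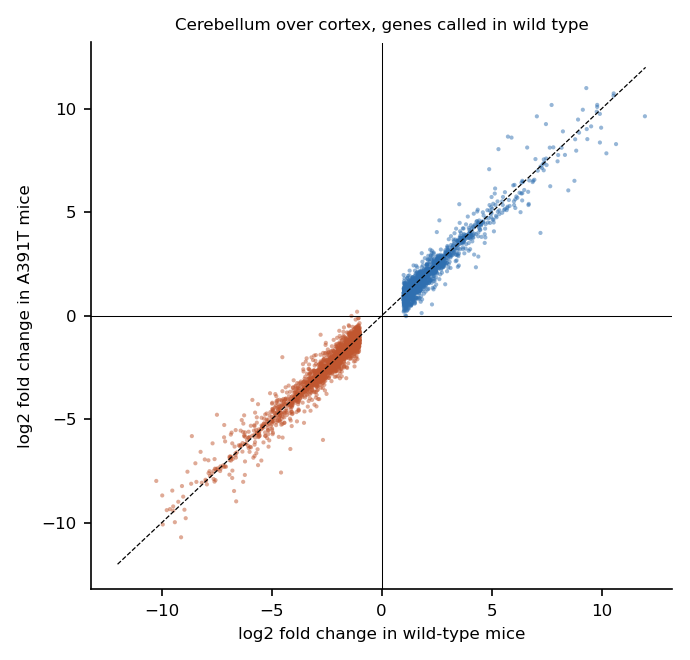
Each point is a gene called in wild-type mice, with its log2 fold change, cerebellum over cortex, in wild-type mice (horizontal) and in A391T mice (vertical), and the dashed line marks equality. The points follow the line over the whole range, and 3412 of the 3853 genes tested in both genotypes were called in the same direction in both, with genotypes as the count files name them.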

How the data were processed

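The authors made stranded libraries from polyadenylated RNA, sequenced 50-base reads and aligned them with STAR to mm9. They counted reads per Ensembl gene with HTSeq without regard to strand. Ambiguous reads, such as those over exons of a gene and of an overlapping antisense gene, were counted for neither gene. Such reads made up 2.20% to 2.49% of the reads in the wild-type count files. The TPM of a gene with many shared exon bases can therefore be understated. The deposited count files, with raw counts per gene, were the input here. A deposited table of RPKM values supplied gene lengths only, used with the counts for TPM, and its columns were matched to the count files by their values. Groups follow the sample titles.

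Genes kept by filterByExpr were tested with edgeR 4.0.16 (R 4.3.3), TMM scaling and the quasi-likelihood test, region as the only term, on the 8 wild-type libraries. The SE is the log2 fold change over the square root of F. Counting intervals are exact binomial. Both regions of a mouse came from the same animal, yet deviations of same-mouse libraries correlated at 0.23, -0.18, 0.14 and -0.11. P-values measure the spread between mice. On simulated counts for this comparison (15573 genes), 87 of 98 genes changed 2-fold and 95 of 95 changed 4-fold passed the adjusted p, with 8 of 15380 unchanged genes, and with the 2-fold limit added 51 of 98, 95 of 95 and 1 of 15380 were called. In this simulation few genes were changed, up and down alike, and all others kept their cortex mean in both regions. The real regions differed far more widely, so these rates hold for the simulated setting only. Alternatives were DESeq2 1.42.0, other filters, scalings, designs and sample sets. Gene lists and genes to name were chosen with earlier results of these data known. Named are the 12 called genes with the largest difference in each direction at 5 TPM or more, the 10 most abundant per region, up to 2 called per direction and the most abundant uncalled gene of each list, and 5 long non-coding RNAs per direction, of which 10 genes are not reported here. Shared exons, coordinates and start sites are from GENCODE vM1 on NCBIM37.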

Additional observations from a re-analysis of the deposited data

Results flagged for a closer look

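In each region the levels of the 235 genes named here were searched for 1 library lying far from the other 3, by Dixon's gap ratio at the 95% level, and 47 of 470 checks gave one. Chance alone gives about 1 in 20 for continuous values, a rate that does not apply to the 9 checks in which the other 3 libraries had no read. All values in brackets are TPM in the library named.

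CBLM479 accounted for 18 of them. It was above the other cerebellum libraries for Nrgn (253.8), Cpe (2367), Camk2n1 (407.6), Fibcd1 (2.548), Vip (4.772), Bmp3 (0.243), Kcnip2 (15.37), Grm5 (17.21), Kcnj4 (4.436), Nr2e1 (0.344), Gnb1 (469.9), Camkv (36.17), Camk2a (86.18), Cdh9 (2.591), Cntnap5a (5.85) and Slit1 (3.357), all of which have a negative log2 fold change. It was below the others for Clic6 (13.03) and Cdh3 (0.6679). The part of carried-over forebrain tissue in these values was not tested.

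CTX480 stood apart 10 times, above the other cortex libraries for Fth1 (10571), Ckb (3488), Cst3 (3734) and Opalin (45.12) and below them for Th (2.46) and Lrfn2 (29.56), and it was the only cortex library with a read for Sycp1 (0.0485), the second Cbln1 gene (0.0918), Gm13944 (0.1736) and Igfbp1 (0.1096). It also has the fewest reads of the 8 libraries. CTX479 was high for Sp8 (10.05), Foxj1 (20.71), Calb2 (51.29), Prkcd (17.89) and Fgf3 (1.989). CTX448 was low for 1500016L03Rik (0) and Pcp4 (452.1) and alone had reads for Lmx1a (0.0737). CTX447 alone had a read for 0610009B14Rik (0.155) and was low for Cdh3 (0.0717).

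Among the remaining cerebellum libraries, CBLM447 was high for both noradrenergic genes, Dbh (8.808) and Slc6a2 (4.124). CBLM448 was high for Kcng4 (264.4), low for Spink8 (0.5634) and Ano2 (0), and alone had a read for Dlx6as1 (0.0167) and Dlx2 (0.0509). CBLM480 was low for Syt6 (10.07) and high for Hbb-b1 (231.6). Values resting on single reads are at the limit of this depth.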

How the results depend on the processing

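No call of a named gene reversed under any alternative. The sign changed for 7 uncalled genes within 0.11 of 0 on the log2 scale (Psap, Atp1b1, Mbp, Slc2a1, Hbb-b1, Klf9 and Pcdh9), in each case with library totals among the alternatives. Of all calls 57.4% were toward cortex. The share was 48.8% on dropping the 2-fold limit and 50.4% with library totals, near an even split in both, and higher under the other alternatives. In 5 lists with counts at most 2 apart, the direction with more calls changed under an alternative: calcium-binding proteins, basic helix-loop-helix factors, ionotropic glutamate receptors and both homeobox lists. With the mouse as a replicate block, since both regions came from each mouse, 1692 genes were called higher in cerebellum and 2266 higher in cortex, and among named genes the block changed the call of Chrnb2 alone (log2 fold change 1.00). DESeq2 called 1636 and 2314, edgeR's exact test 1690 and 2270, library totals 1989 and 2022, no filter 2163 and 2935, and a test against a 2-fold change 1169 and 1757. The names of the RPKM table gave 1582 and 2235, the 2 mice named alike 1690 and 2234, and leaving out 1 library 1682 to 1805 and 2277 to 2409.

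Dropping the 2-fold limit raised the counts to 5572 genes higher in cerebellum and 5303 higher in cortex. Toward cerebellum this gave 34 genes of transmitters and peptides, 49 of signalling, 48 receptors, 62 ion channels, 126 transcription factors and 36 adhesion genes. Toward cortex it gave 33 glial markers, 4 vascular markers, 99 signalling genes and 136 transcription factors. In the 2 mice named alike, 8 markers of neighbouring tissue were called higher in cerebellum and 1 vascular marker higher in cortex, and at 1 CPM or more in 4 libraries the neighbouring tissue count was 12. Most of both shifts lies in the choroid plexus list, of which 3 and 7 members were then called, and 1 of 2 brainstem and midbrain markers also lost its call in each.

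With 4 mice per region, genes near 2-fold gain or lose the call with single libraries, and genes with few reads in a region have folds known only within wide intervals. Whether CTX447, CTX448, CBLM447 and CBLM448 carry the right label in the count files or in the RPKM table cannot be settled from the files.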

Other observations

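The genes in this section fall outside the naming rule and were chosen after their values were seen. Iltifb and Il22, a pair of closely related cytokine genes of the interleukin 22 family between which short reads can be divided wrongly, were read in every cerebellum library. Iltifb had 201, 226, 187 and 192 reads in cerebellum and 0, 0, 0 and 1 in cortex (log2 fold change 8.98 ± 0.33 SE, adjusted p = 1.18e-09, and a ratio of 745, interval 133 to 29470). Il22 had 52, 55, 65 and 53 against 1, 0, 0 and 1 (6.39 ± 0.39, adjusted p = 6.3e-08, and a ratio of 104, interval 28.5 to 864). Lbx1, a homeobox gene of dorsal hindbrain and muscle precursors, had 331, 315, 322 and 247 reads in cerebellum and 3 in all in cortex, and Smpx, a small protein of striated muscle, had 140, 174, 147 and 129 against 0, 0, 2 and 1.

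Toward cortex, the immunoglobulin heavy chain gene Ighg2c had 113, 129, 106 and 114 reads in cortex and 1, 1, 1 and 0 in cerebellum. Its log2 fold change was -7.16 ± 0.28 (adjusted p = 1.87e-09) and its ratio 166.5 (interval 56.6 to 810.5), with an even level over the cortex libraries. The skeletal muscle myosins were also read in all cortex libraries, Myh1 at 21, 29, 26 and 22 reads with none in cerebellum, Myh2 at 35, 56, 34 and 34 reads with 1, and Myh4 at 22, 25, 21 and 14 reads with 1. Kiss1, the kisspeptin precursor, had 33, 57, 32 and 47 reads in cortex and 1 in cerebellum, in CBLM448. What these reads come from was not tested. All 9 genes differed in the same direction in A391T mice, where the log2 fold changes were 8.85 for Iltifb, 5.57 for Il22, 7.77 for Lbx1, 7.14 for Smpx, -5.87 for Ighg2c, -6.16 for Myh1, -5.64 for Myh2, -4.06 for Myh4 and -6.81 for Kiss1.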
